A study of Mus musculus with 9 samples.

Results

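Prostaglandins and leukotrienes are lipid mediators made from arachidonic acid, and their synthesis was followed here through the mRNA of 10 genes in a mouse alveolar macrophage line. The genes were taken by symbol from the deposited gene table: Pla2g4a, Ptgs1, Ptgs2, Ptges, Ptges2, Ptges3, Alox5, Alox5ap, Lta4h and Ptger4. All 10 were among the 14771 genes of the table, and all 10 were among the 11281 genes with enough counts to be tested. Their choice used no measured value as a criterion, but it was made with earlier results of these data known.

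RNA was sequenced from MH-S cells, an established mouse alveolar macrophage line, in 3 groups of 3 libraries. SUR libraries carry the treatment label suramin, and the treatment protocol describes that group as 200 µM suramin together with 1 µg/ml lipopolysaccharide (LPS) for 4 h. LPS libraries came from cells given 1 µg/ml LPS for 4 h, and CON libraries from cells given culture medium alone. All cells grew in the same serum-containing medium with mercaptoethanol and antibiotics. LPS comes from the outer membrane of Gram-negative bacteria and is sensed through TLR4. Suramin is a polyanionic drug known as an antagonist of purinergic receptors. No group received suramin without LPS, so a direct effect of suramin on these genes and an effect on the response to LPS cannot be told apart. No label says that the replicates were separate cultures, so the p-values speak only of variation among these libraries, which may be technical.

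The libraries held 15729402 to 16675250 counts each. General macrophage genes were high in all 9 libraries, with Cd68 between 883.84 and 1099.27 FPKM (fragments scaled for transcript length and sequencing depth) and Csf1r between 254.45 and 305.65 FPKM. Of 25 listed macrophage and alveolar macrophage genes, 21 were in the table, and those that mark alveolar macrophages in the lung were split. Fabp5 lay between 381.16 and 964.48 FPKM, Mrc1 between 13.49 and 38.8, Fabp4 between 8.33 and 11.18 and Itgax between 1.84 and 3.29 FPKM, whereas Marco reached at most 0.04 FPKM, Chil3 0.05, Siglecf 0.09, Olr1 0.09 and Pparg 0.4. Summed markers of neutrophils did not exceed 0.866 CPM (counts scaled to library size) and those of lymphocytes did not exceed 1.09 CPM in any library, and the epithelial and mast cell lists reached at most 0.562 and 0.181 CPM. Fibroblast and endothelial markers summed to 95.2 to 247 CPM in SUR, 89.9 to 232 CPM in LPS and 93.2 to 240 CPM in CON, mostly from Vwf. The 3 libraries numbered 1 stood apart from those numbered 2 and 3 in every group. The chi-square of gene counts per degree of freedom was 28.6 to 36 between library 1 and another library of its group, and 3.75 to 6.06 between libraries 2 and 3. Results are therefore also given with the replicate number as a block and without those 3 libraries.

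Arachidonic acid is cut from membrane phospholipids by cytosolic phospholipase A2, encoded by Pla2g4a. The cyclooxygenases, Ptgs1 (COX-1) and Ptgs2 (COX-2), turn it into prostaglandin H2, which the prostaglandin E synthases Ptges, Ptges2 and Ptges3 convert to prostaglandin E2. Ptger4 encodes EP4, one of the receptors through which prostaglandin E2 acts back on macrophages. In the other branch Alox5 (5-lipoxygenase), presented with its substrate by the membrane protein FLAP (Alox5ap), makes leukotriene A4, and the hydrolase Lta4h turns that into leukotriene B4. COX-2 is the inducible cyclooxygenase, known for its induction by LPS in macrophages, whereas COX-1 is regarded as the constitutive form.

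At the level of length-scaled expression the 10 genes covered a wide range. Alox5ap was the highest of them, at 230 ± 49.9 FPKM in SUR, 205 ± 46.9 FPKM in LPS and 242 ± 40.8 FPKM in CON (mean ± SD, n = 3 each). Its enzyme partner Alox5 was the lowest, at 0.47 ± 0.282 FPKM in SUR, 0.4 ± 0.255 FPKM in LPS and 0.57 ± 0.403 FPKM in CON. The scaffold of the leukotriene branch was therefore 290 to 1400 times its lipoxygenase on the FPKM scale, depending on the library. The highest ratios, 1080 to 1400, were those of the libraries numbered 1, where Alox5 had only 5 to 7 counts. In LPS cells the order below Alox5ap was Ptges3 at 117 ± 9.53 FPKM, Ptgs2 at 92.1 ± 24.2, Pla2g4a at 57.9 ± 4.21, Lta4h at 20.4 ± 0.704, Ptger4 at 13.8 ± 1.4, Ptges2 at 13.4 ± 1.84, Ptgs1 at 3.34 ± 1.14 and Ptges at 1.24 ± 0.387 FPKM. The ranges of Ptges3 and Ptgs2 over the LPS libraries overlapped, but within each LPS library Ptges3 was the higher. Those of Ptger4 and Ptges2 also overlapped, and their order changed between libraries, so that pair cannot be ranked. Among the prostaglandin E synthases, Ptges, the inducible microsomal enzyme that is known to work with COX-2, was the lowest in every group.

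**Figure D1:**
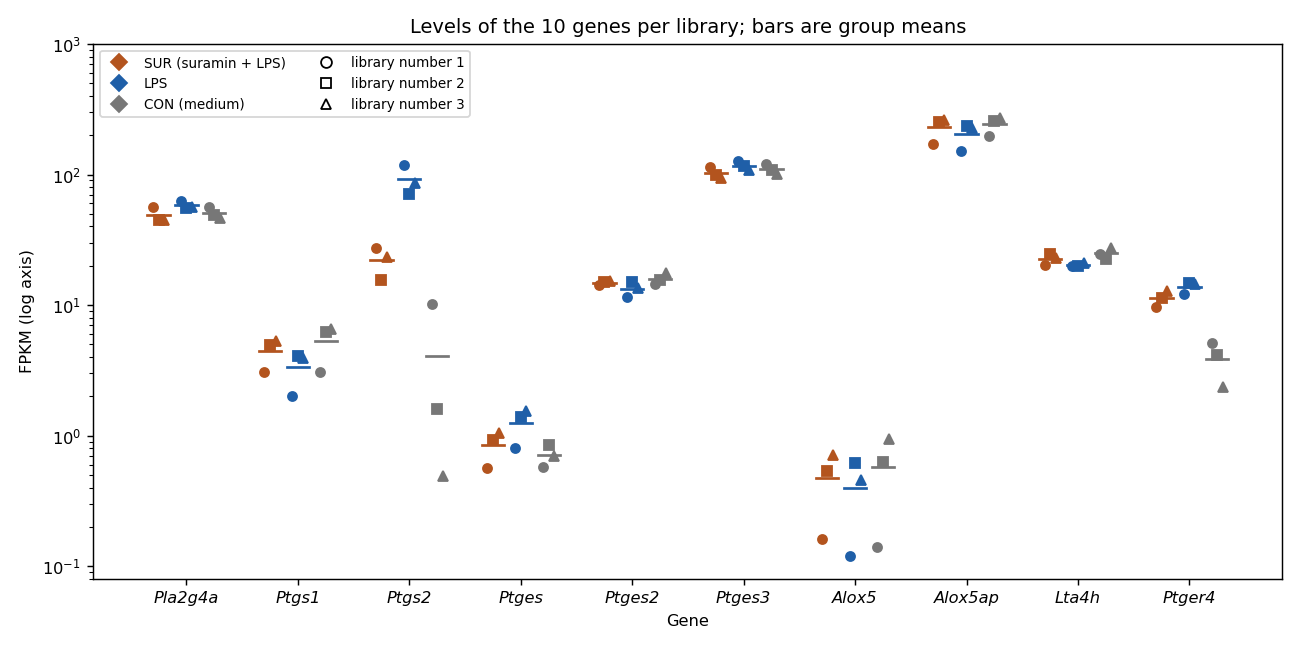
FPKM of the 10 genes on a log axis in each of the 9 libraries, with SUR, LPS and CON side by side for each gene and a bar at each group mean; symbols give the replicate number. Ptgs2 is the gene whose groups lie farthest apart (22, 92.1 and 4.08 FPKM on average in SUR, LPS and CON), and Alox5 is the lowest gene in every group.

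Ptgs2 and Pla2g4a are neighbours on chromosome 1 of the build GRCm38, with a gap of 138740 bp and 0 other genes of the table between them. Ptgs2 lies at chr1:150100031-150108234 on the plus strand and Pla2g4a at chr1:149829618-149961290 on the minus strand. Ptgs1 (chr2:36216742-36258593, plus), Ptges (chr2:30889471-30931020, minus) and Ptges2 (chr2:32395890-32405772, plus) share chromosome 2, and Ptger4 lies at chr15:5233399-5244187 on the minus strand. RefSeq promoter windows on GRCm38.p6, from 250 bases before to 50 bases after the start, were found for 9 of the 10 genes, Alox5ap being the one without a match. The windows of 4 genes are shown 5′ to 3′ on the gene's strand. They are the 2 genes that rose with LPS in every fit, and for each a gene of the same pathway that did not. The latter are the synthase Ptges and the other cyclooxygenase Ptgs1. Ptges was also higher with LPS, though it passed the test in only some fits. Capitals mark matches to the motifs searched.
Ptgs2 (chr1:150099781-150100080, plus): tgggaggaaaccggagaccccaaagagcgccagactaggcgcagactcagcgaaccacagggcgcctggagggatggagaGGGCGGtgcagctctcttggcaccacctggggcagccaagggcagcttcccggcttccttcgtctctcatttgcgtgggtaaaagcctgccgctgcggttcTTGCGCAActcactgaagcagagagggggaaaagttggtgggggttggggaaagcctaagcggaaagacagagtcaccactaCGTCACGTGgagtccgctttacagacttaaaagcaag
Ptger4 (chr15:5244138-5244437, minus): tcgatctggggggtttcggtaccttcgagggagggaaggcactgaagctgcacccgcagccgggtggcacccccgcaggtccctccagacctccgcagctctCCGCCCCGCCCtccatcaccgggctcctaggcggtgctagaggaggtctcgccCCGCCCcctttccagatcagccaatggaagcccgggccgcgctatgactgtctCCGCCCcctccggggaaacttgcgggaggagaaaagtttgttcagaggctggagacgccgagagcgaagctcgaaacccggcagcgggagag
Ptges (chr2:30903248-30903547, minus): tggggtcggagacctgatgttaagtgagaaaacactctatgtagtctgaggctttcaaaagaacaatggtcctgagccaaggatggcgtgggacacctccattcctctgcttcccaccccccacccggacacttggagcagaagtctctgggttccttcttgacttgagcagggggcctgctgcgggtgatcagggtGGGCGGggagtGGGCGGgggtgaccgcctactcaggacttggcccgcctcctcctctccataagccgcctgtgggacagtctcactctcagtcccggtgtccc
Ptgs1 (chr2:36230176-36230475, plus): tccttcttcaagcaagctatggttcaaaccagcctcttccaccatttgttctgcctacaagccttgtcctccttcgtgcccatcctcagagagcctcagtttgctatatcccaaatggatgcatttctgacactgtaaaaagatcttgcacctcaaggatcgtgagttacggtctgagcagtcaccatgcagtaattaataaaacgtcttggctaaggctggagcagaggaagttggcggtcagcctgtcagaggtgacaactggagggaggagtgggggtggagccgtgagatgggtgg

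The search covered both strands and 7 motifs. The TATA box was taken as TATAAA, and the half-site of the cAMP response element as TGACG. The E-box was taken as CACGTG, and the site bound by AP-1 factors as TGANTCA. The GC box was taken as GGGCGG, and the site of the C/EBP family as TTGCNNAA. The NF-kappaB consensus completed the set. With the RefSeq start as position 1, the Ptgs2 window held a GC box at -170 to -165 and a C/EBP-type match at -69 to -62. It also held a cAMP response element half-site at 14 to 18 that overlaps an E-box at 17 to 22. The Ptger4 window held 4 GC boxes, the first a pair that shares a base, and the Ptges window held 2, while none of the 7 motifs was found in the Ptgs1 window. The Ptgs1 and Ptges windows cover RefSeq starts inside the gene spans given above, whereas those of Ptgs2 and Ptger4 lie at the edge of theirs. The windows are therefore not like for like between these genes. Of all 32851 promoter windows in the table, 35.7% held a GC box, 20.8% the half-site, 13.6% the TATA box, 10.8% the C/EBP-type motif, 8.46% the NF-kappaB consensus, 7.81% the AP-1 motif and 7.15% the E-box. The matches describe these letters only, and no binding was measured.

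The first comparison asked what LPS changed. Ptgs2 and Ptger4 rose, and 0 of the 10 genes fell, by edgeR's quasi-likelihood test, with p-values adjusted by Benjamini-Hochberg over all tested genes and a threshold of 0.05. The background was 18.3% of the tested genes called in LPS against CON, 8.98% upward and 9.36% downward, so 2 of 10 called is a share near that of all genes. Ptgs2 rose 24.8-fold and Ptger4 3.91-fold. The median log2 fold change of the 10 was 0.066, beside -0.0088 over all tested genes. At an unadjusted p under 0.05, 5 of the 10 were higher and 0 lower, and DESeq2 called 4 higher and 0 lower, beside 20.7% of all genes. With the replicate number as a block, 5 of the 10 rose (Ptgs2, Ptger4, Ptges, Ptges3 and Pla2g4a) and Ptgs1 fell, beside 41.8% of all genes called in that fit. Without the 3 libraries numbered 1, 5 rose and 1 fell, beside 30.2% of all genes. In bulk RNA, fewer cells of a type and less RNA per cell cannot be told apart.

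Ptgs2 had 523, 320 and 389 CPM in LPS libraries 1, 2 and 3, against 41.1, 6.51 and 1.96 CPM in CON libraries 1, 2 and 3. The groups did not overlap, and CON 1 stood well above CON 2 and CON 3. The log2 fold change was 4.63 (SE 0.87, adjusted p = 0.00566 by edgeR's quasi-likelihood test). Within numbers 1, 2 and 3 the log2 differences were 3.67, 5.59 and 7.54, upward in 3 of 3 pairs. The size rested in part on CON 1: without that library the log2 fold change was 6.61, and without all 3 libraries numbered 1 it was 6.40. Ptgs2 passed the threshold in each of 19 alternative settings, with log2 fold changes between 4.10 and 6.61.

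Ptger4 had 39.0, 48.5 and 46.7 CPM in LPS libraries, against 15.0, 12.4 and 6.91 CPM in CON libraries. No LPS library came near the CON range. The log2 fold change was 1.97 (SE 0.24, adjusted p = 0.000692 by edgeR's quasi-likelihood test), and it stayed between 1.64 and 2.32 over the 19 alternatives, past the threshold in all of them. Exons of Ptger4 overlap those of Ttc33 and of the pseudogene Gm15937 on the opposite strand, and whether the authors counted by strand is not given in the sources used here, so its counts are uncertain to that extent. The same holds for Alox5ap with Gm19719 and for Ptgs1 with Gm43621.

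Ptges had 2.79, 4.97 and 5.41 CPM in LPS libraries, against 1.81, 2.74 and 2.20 CPM in CON libraries. The lowest LPS library lay just above the highest CON library, and the difference within numbers was 0.59, 0.83 and 1.25 on the log2 scale. The log2 fold change of 0.96 did not pass the threshold in the fit without a block (SE 0.32, adjusted p = 0.0758 by edgeR's quasi-likelihood test) and passed with the replicate block (0.95, SE 0.17, adjusted p = 0.001). These values rest on 44 to 81.9 estimated counts per LPS library and 31 to 45 per CON library.

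Pla2g4a had 171, 153 and 155 CPM in LPS libraries, against 140, 125 and 115 CPM in CON libraries. The difference was small but in the same direction in 3 of 3 pairs, at 0.34 on the log2 scale (SE 0.10, adjusted p = 0.0568 by edgeR's quasi-likelihood test), and it passed with the replicate block (0.34, SE 0.04, adjusted p = 0.000105). Ptges3, the cytosolic synthase that also acts as the Hsp90 co-chaperone p23, averaged 210 ± 15.4 CPM in LPS and 179 ± 15.7 CPM in CON. Its log2 fold change was 0.23 (adjusted p = 0.143 without the block and 0.000416 with it, edgeR's quasi-likelihood test). Both had at least 1920 counts in every library, and both differences were far smaller than those of Ptgs2 and Ptger4.

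Ptgs1 had 6.34, 12.5 and 12.3 CPM in LPS libraries, against 9.11, 18.6 and 20.1 CPM in CON libraries. It was lower with LPS in 3 of 3 pairs, by 0.51, 0.57 and 0.70 on the log2 scale, while the groups overlapped, library 1 being the lowest of each. The log2 fold change was -0.62 (SE 0.36, adjusted p = 0.318 by edgeR's quasi-likelihood test), and -0.61 with the replicate block (SE 0.09, adjusted p = 0.000255). Without the 3 libraries numbered 1 it was -0.63 (adjusted p = 0.000628, same test). In those 2 fits Ptgs1 fell and Ptgs2 rose, so the cyclooxygenase genes moved in opposite directions.

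The balance of the cyclooxygenases was followed as the ratio of Ptgs2 to Ptgs1 FPKM. It was 8.88, 3.12 and 4.36 in SUR, 58.7, 17.5 and 22.0 in LPS, and 3.32, 0.256 and 0.0747 in CON. In CON 2 and CON 3 Ptgs1 was the higher of the cyclooxygenases, and in the other 7 libraries Ptgs2 was. The mean log2 ratio was 6.15 higher in LPS than in CON and 2.52 lower in SUR than in LPS, each with p = 0.1 by a two-sided exact permutation test, the smallest p that 3 libraries against 3 allow. Adjusted over the 6 ratio tests (a second ratio is given further on), both p-values were 0.15. For SUR against CON the mean log2 ratio was 3.63 higher, with an exact permutation p of 0.2 and an adjusted value of 0.24.

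**Figure D2:**
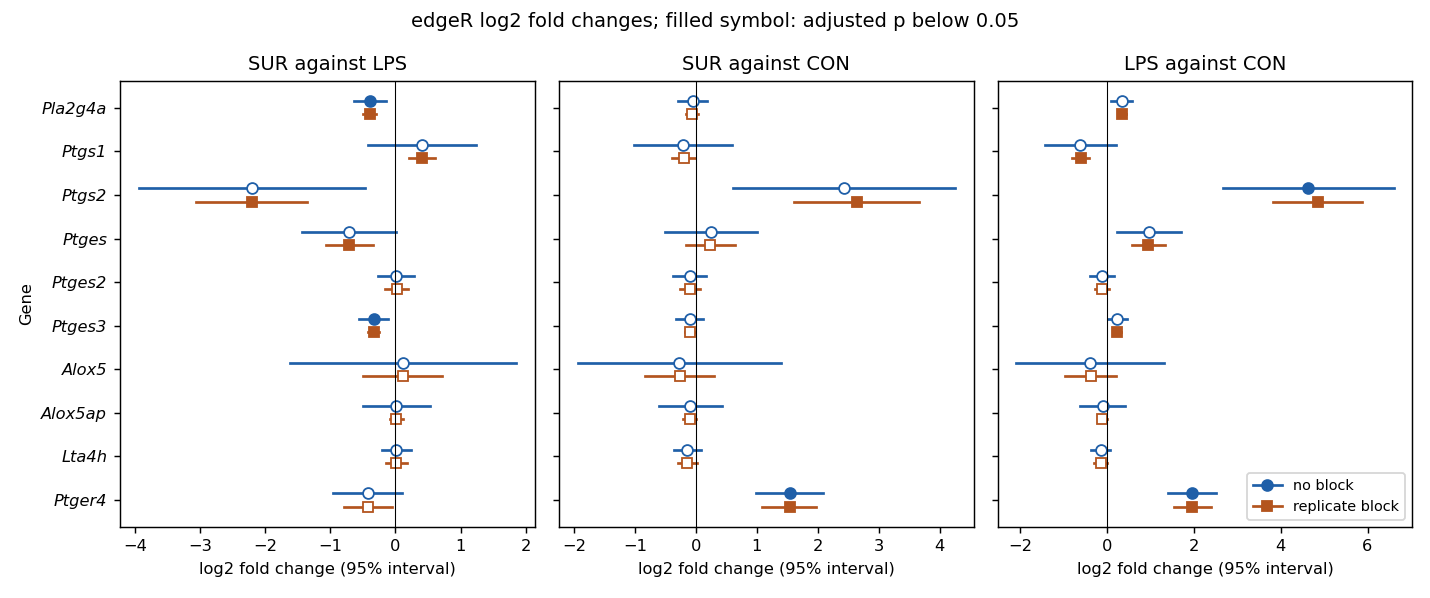
edgeR log2 fold changes with 95% intervals for the 10 genes in the 3 comparisons, as fitted without a block (circles) and with the replicate number as a block (squares); filled symbols have an adjusted p below 0.05. Ptgs2 reads -2.20, 2.43 and 4.63 without the block in SUR against LPS, SUR against CON and LPS against CON, and the block narrows most intervals while moving few of the centres.

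The second comparison asked what differed when suramin was present with LPS. Pla2g4a and Ptges3 fell and 0 of the 10 rose, 2 called of 10 beside a background of 17.2% of tested genes called in SUR against LPS, 9.29% upward and 7.93% downward. This share is again near that of all genes. The median log2 fold change of the 10 was -0.163, against -0.0059 over all tested genes. At an unadjusted p under 0.05, 3 of the 10 were lower and 0 higher, and DESeq2 called 2 lower and 0 higher, beside 20.6% of all genes. With the replicate block Ptgs2, Ptges, Ptges3 and Pla2g4a fell and Ptgs1 rose, beside 45.3% of all genes called. Without the 3 libraries numbered 1, 5 of the 10 fell and 1 rose, beside 30% of all genes. Under upper-quartile normalization (edgeR) and under limma on log2(FPKM + 1), 0 of the 10 were called, with 3 and 2 of them lower at an unadjusted p under 0.05, while 19.6% and 22.1% of all genes were called in these settings.

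Ptgs2 had the largest difference of the 10. It stood at 109, 63.2 and 95 CPM in SUR libraries, against 523, 320 and 389 CPM in LPS libraries. Every SUR library was below every LPS library and above every CON library, and the SUR mean was 21.7% of the LPS mean. The log2 fold change of -2.20 (SE 0.77) had an adjusted p of 0.0852 by edgeR's quasi-likelihood test and so was not called in the fit of all 9 libraries, where the spread of the CON libraries enters the estimate of error. With the replicate block it was -2.21 (SE 0.38, adjusted p = 0.000865). In a fit of only the 6 SUR and LPS libraries its adjusted p was 0.00214, and without CON 1 it was 0.00266. Ptgs2 passed the threshold in 6 of 19 alternative settings, with log2 fold changes between -2.39 and -1.99 and adjusted p up to 0.235. DESeq2 as run here gave an adjusted p of 0.0695. Within numbers 1, 2 and 3 the log2 differences were -2.26, -2.34 and -2.03, a far narrower spread than in LPS against CON. In the authors' deposited table the log2 fold change of Ptgs2 for SUR over LPS was -2.20 with a q-value of 2.91e-18.

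Pla2g4a had 139, 114 and 113 CPM in SUR libraries, against 171, 153 and 155 CPM in LPS libraries. All 3 SUR libraries were below all 3 LPS libraries, and the log2 fold change was -0.39 (SE 0.10, adjusted p = 0.0333 by edgeR's quasi-likelihood test). Ptges3 had 184, 163 and 153 CPM in SUR libraries, against 225, 213 and 194 CPM in LPS libraries, also without overlap. Its log2 fold change was -0.33 (SE 0.10, adjusted p = 0.0439, same test). These are reductions of 23.8% and 20.7%. Both calls were close to the threshold: leaving out CON 2, any LPS library, SUR 2 or SUR 3 ended each of them, with adjusted p up to 0.123 for Pla2g4a and 0.154 for Ptges3. With the replicate block the adjusted p-values were 4.14e-05 and 3.65e-05 (edgeR's quasi-likelihood test).

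Ptges stood at 1.73, 2.96 and 3.33 CPM in SUR libraries, against 2.79, 4.97 and 5.41 CPM in LPS libraries. The groups overlapped, while within each number the SUR library was lower, by 0.65, 0.73 and 0.68 on the log2 scale. The log2 fold change was -0.71 (adjusted p = 0.173 by edgeR's quasi-likelihood test, and 0.00481 with the replicate block). Ptgs1 had 9.34, 15.8 and 16 CPM in SUR libraries, against 6.34, 12.5 and 12.3 CPM in LPS libraries. It was higher with suramin in 3 of 3 pairs, with a log2 fold change of 0.40 (adjusted p = 0.53, and 0.00396 with the replicate block, same test). Both comparisons use the same LPS libraries, so a deviation of those libraries enters each.

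Ptger4 differed from Ptgs2 in size. It had 28.3, 33.8 and 37.5 CPM in SUR libraries, against 39.0, 48.5 and 46.7 CPM in LPS libraries. The groups did not overlap, but the log2 fold change of -0.43 (SE 0.23) had an adjusted p of 0.259 by edgeR's quasi-likelihood test and 0.057 with the replicate block. In the authors' deposited table the q-value of Ptger4 for SUR over LPS was 0.044, while DESeq2 as run here gave an adjusted p of 0.238. Ptger4 passed the threshold in 1 of 19 alternative settings, with adjusted p up to 0.47. The SUR mean was 74.3% of the LPS mean in CPM. Of the difference between LPS and CON means in CPM, 65.5% was left in SUR, whereas 18.4% was left for Ptgs2. On the log2 scale the contrast was smaller, with fold changes against CON of 1.54 in SUR and 1.97 in LPS for Ptger4. For Ptgs2 these were 2.43 and 4.63. The ratio of Ptgs2 to Ptger4 FPKM was 2.80, 1.35 and 1.83 in SUR, 9.70, 4.78 and 6.02 in LPS, and 1.98, 0.381 and 0.208 in CON. The mean log2 ratio was 1.78 lower in SUR than in LPS (two-sided exact permutation p = 0.1, the smallest possible, adjusted 0.15), with every SUR library below every LPS library.

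**Figure D3:**
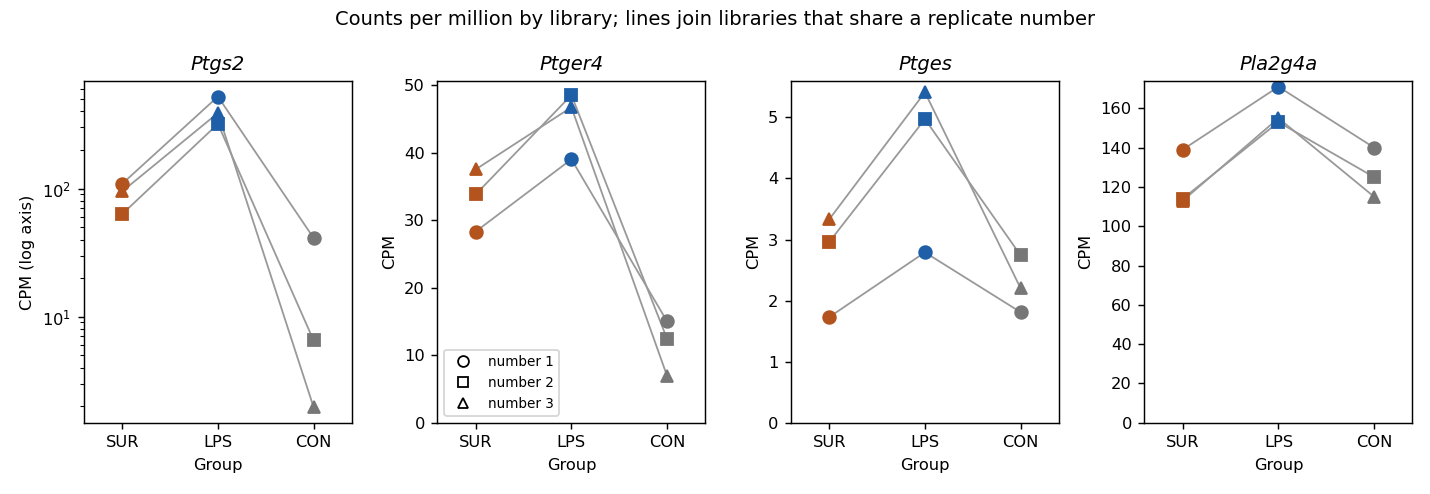
CPM of Ptgs2 (log axis), Ptger4, Ptges and Pla2g4a (linear axes from 0) in SUR, LPS and CON, with lines joining libraries of the same replicate number. In every panel each SUR library lies below the LPS library of its number, and in the Ptgs2 panel CON runs from 1.96 to 41.1 CPM.

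The third comparison set SUR against CON. Ptger4 rose, the 1 call among the 10 genes, beside a background of 0.425% of tested genes called, 0.39% upward and 0.0355% downward. At an unadjusted p under 0.05, Ptgs2 and Ptger4 were higher and 0 were lower. Both were called without the 3 libraries numbered 1, beside 5.19% of all genes, and both with the replicate block, beside 11.5% of all genes. For Ptger4 the log2 fold change was 1.54 (SE 0.24, adjusted p = 0.0432 by edgeR's quasi-likelihood test), with means of 33.2 ± 4.65 CPM in SUR and 11.4 ± 4.13 CPM in CON. The call was lost in a fit of only the 6 libraries compared (adjusted p = 0.161) and without CON 2, CON 3, any LPS library or any SUR library (adjusted p 0.0554 to 0.217). With the replicate block it was retained (1.54, SE 0.20, adjusted p = 0.00104).

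Ptgs2 in SUR also lay above CON in every library, at 89.2 ± 23.6 CPM against 16.5 ± 21.4 CPM, but its log2 fold change of 2.43 was not called (SE 0.80, adjusted p = 0.334 by edgeR's quasi-likelihood test). With the replicate block it was 2.64 (SE 0.46, adjusted p = 0.00562), and without CON 1 it was 4.39 (adjusted p = 0.00332, no block). The within-number differences were 1.41, 3.25 and 5.51. SUR and CON libraries overlapped for each of the other 8 genes. Their log2 fold changes ran from -0.27 for Alox5 to 0.25 for Ptges, and none passed the threshold in any of the 19 alternatives.

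The leukotriene branch gave no call in any comparison. Alox5ap had 122, 183 and 189 CPM in SUR libraries, 118, 190 and 182 CPM in LPS libraries and 140, 190 and 195 CPM in CON libraries. The groups overlapped, and the log2 fold changes were 0.01 for SUR against LPS (95% interval -0.50 to 0.52), -0.09 for SUR against CON (-0.60 to 0.42) and -0.10 for LPS against CON (-0.61 to 0.41). Lta4h had 34.4, 43.0 and 39.8 CPM in SUR, 37.1, 38.7 and 40.4 CPM in LPS and 42.0, 39.8 and 47.2 CPM in CON. Its log2 fold changes were 0.01 for SUR against LPS (95% interval -0.21 to 0.24), -0.14 for SUR against CON (-0.36 to 0.08) and -0.15 for LPS against CON (-0.37 to 0.07). The Lta4h intervals reach no further than 0.37 from 0 on the log2 scale.

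Alox5 rested on few counts: 7, 23 and 30 in SUR libraries, 5, 25 and 19 in LPS libraries and 6, 26 and 39 in CON libraries. Its 95% interval for LPS against CON ran from -2.09 to 1.32 on the log2 scale, an interval that includes a 2-fold change in either direction. The interval with the replicate block was -0.96 to 0.22, around a log2 fold change of -0.37, and included no 2-fold change in either direction. Ptges2, the membrane-associated synthase regarded as constitutive, had 22.9, 24.8 and 24.9 CPM in SUR libraries, 20.3, 27.5 and 24.2 CPM in LPS libraries and 23.5, 25.8 and 28.6 CPM in CON libraries. Its log2 fold changes lay between -0.11 and 0.01. In none of the 19 alternatives was Ptges2, Alox5, Alox5ap or Lta4h called in any of the 3 comparisons.

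Library 1 was the lowest of its group in all 3 groups for Ptgs1, Ptges, Ptges2, Alox5 and Alox5ap, and the highest in all 3 for Ptgs2, Ptges3 and Pla2g4a. Only Lta4h and Ptger4 had no common order. For Alox5, library 1 minus the mean of libraries 2 and 3 was -1.67 in SUR, -1.85 in LPS and -2.11 in CON on the log2 CPM scale. For Ptgs2 the same difference was 0.50 in SUR, 0.57 in LPS and 3.47 in CON. The labels give no meaning to the numbers, and the part of a batch in this pattern was not tested.

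**Figure D4:**
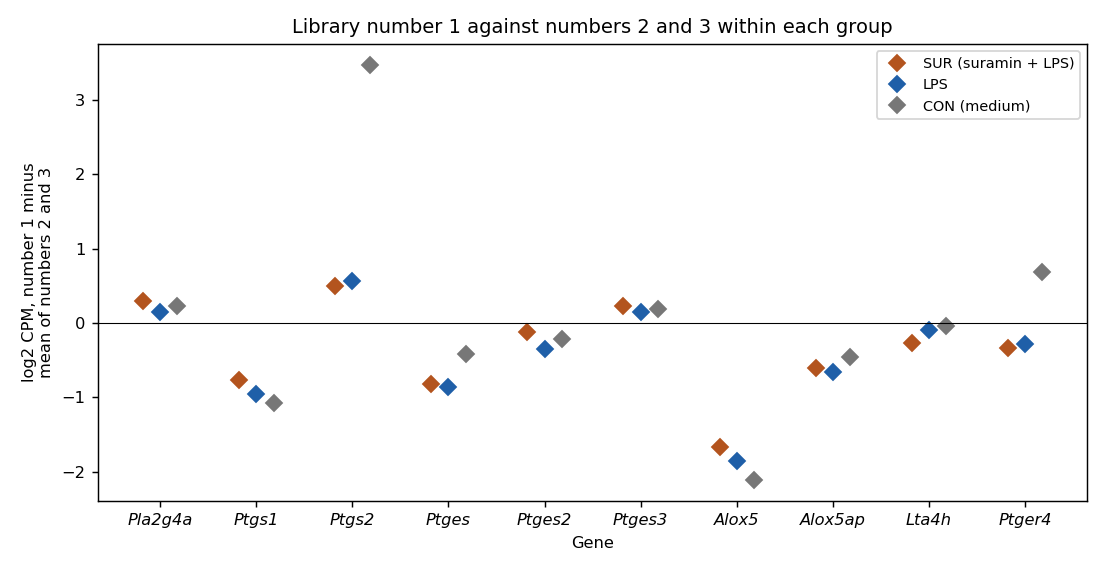
Log2 CPM of library 1 minus the mean of libraries 2 and 3 for each gene in SUR, LPS and CON. The 3 points of Alox5 lie between -2.11 and -1.67, and the Ptgs2 point of CON, at 3.47, stands far from those of SUR (0.50) and LPS (0.57).

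Further genes of the pathway were read from a list of 86 symbols, of which 72 were in the table and 54 were tested. The list was chosen with earlier results of these data known. In LPS against CON 11 of the 54 rose and 2 fell, beside 8.98% and 9.36% of all tested genes. Of those 11 rises, 9 were among 13 listed upstream kinases and regulators, and the others were Ptger2 and Abcc1. In SUR against LPS 5 rose and 7 fell, beside 9.29% and 7.93%, and in SUR against CON 2 rose and 0 fell, beside 0.39% and 0.0355%. The same 13 genes held 6 of the 7 falls and 1 of the 5 rises in SUR against LPS. They also held the 2 rises in SUR against CON. Median log2 fold changes of the list were 0.0078, -0.036 and 0.00082. With the replicate block the calls were 15 up and 7 down in LPS against CON, 10 up and 17 down in SUR against LPS, and 6 up and 0 down in SUR against CON. The shares of all tested genes called in that fit were 41.8%, 45.3% and 11.5%, so the blocked counts of 22, 27 and 6 of 54 are near the background.

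Among the prostanoid receptors other than Ptger4, 4 were tested. Ptger2, the EP2 receptor for prostaglandin E2, had 8.99, 11.2 and 13.2 CPM in SUR libraries, 21.1, 24.5 and 23.8 CPM in LPS libraries and 7.06, 9.25 and 11.2 CPM in CON libraries. It rose with LPS (log2 fold change 1.33, SE 0.19, adjusted p = 0.00127 by edgeR's quasi-likelihood test) and fell in SUR against LPS (-1.06, SE 0.18, adjusted p = 0.005). EP2 and EP4 both couple to cAMP. Only the LPS libraries were high for Ptger2, whereas every SUR library of Ptger4 lay above the CON libraries and below the LPS libraries in CPM. Ptgir, the prostacyclin receptor, ran the other way, with 80.4, 99.3 and 98.7 CPM in SUR libraries, 55.5, 67.3 and 69.7 CPM in LPS libraries and 67.7, 90.0 and 78.8 CPM in CON libraries. It rose in SUR against LPS (0.53, SE 0.13, adjusted p = 0.0246, same test), and its log2 fold change of -0.30 in LPS against CON was not called without the block (adjusted p = 0.178) and was called with it (-0.30, adjusted p = 0.000604).

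**Figure D5:**
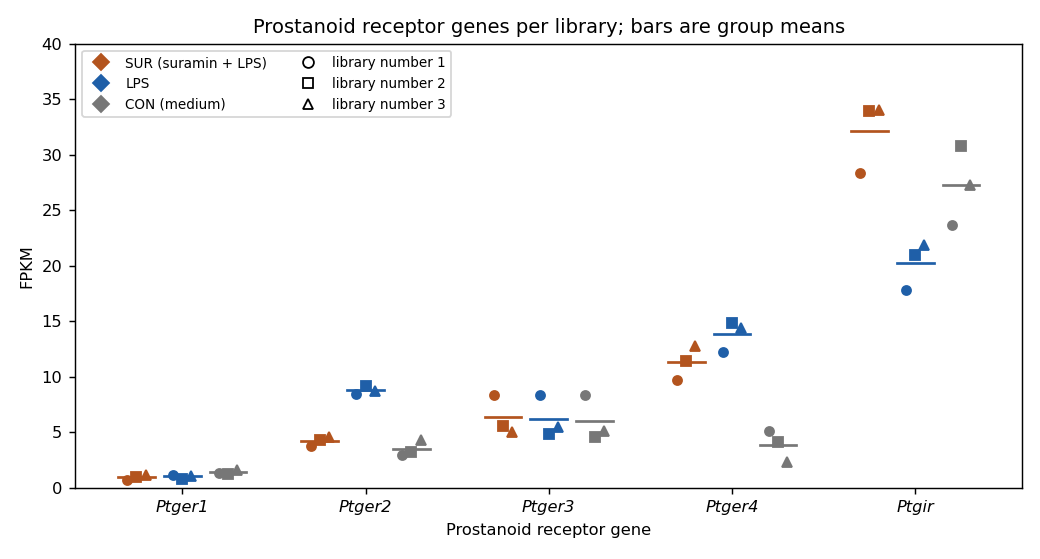
FPKM of 5 prostanoid receptor genes in the 9 libraries, SUR left of LPS left of CON, with bars at group means. Ptger2 is high in the LPS libraries (8.48 to 9.20 FPKM), Ptger4 in the SUR and LPS libraries (9.73 to 14.85 FPKM), and Ptgir is lowest in the LPS libraries (17.81 to 21.92 FPKM).

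The 4 tested synthases of the other prostanoids gave no call. Ptgis, the prostacyclin synthase, had at most 7 counts in a library and was not tested. Ptgds and Prxl2b, with at most 1 and 2 counts, were not tested either. Hpgds, the haematopoietic prostaglandin D synthase, had 163, 171 and 154 CPM in SUR libraries, 160, 173 and 170 CPM in LPS libraries and 162, 183 and 173 CPM in CON libraries, and the groups overlapped. Tbxas1, the thromboxane synthase, had 4.50 to 7.14 CPM in SUR, 4.06 to 9.11 CPM in LPS and 4.03 to 7.73 CPM in CON. Ltc4s, which makes leukotriene C4, held 14 to 37 counts per library and was not called either. The leukotriene B4 receptor Ltb4r1 had at most 4 counts in a library and was not tested, and Cysltr1, the cysteinyl leukotriene receptor, stayed between 7.55 and 10.9 CPM in all 9 libraries. Pla2g15, the lysosomal phospholipase A2, fell with LPS (log2 fold change -0.73, adjusted p = 0.00205 by edgeR's quasi-likelihood test) and rose in SUR against LPS (0.48, adjusted p = 0.018). Pla2g4b, another cytosolic phospholipase A2, had 2.13, 1.42 and 1.40 CPM in SUR libraries, 0.697, 0.885 and 0.528 CPM in LPS libraries and 0.992, 1.28 and 1.19 CPM in CON libraries. Every SUR library was above every LPS library, and Pla2g4b rose in SUR against LPS (1.23, SE 0.29, adjusted p = 0.0191, same test), the opposite direction to Pla2g4a. It rests on 8 to 37 counts per library, and its exons overlap those of Gm28042 on the same strand and Sptbn5 on the other, so its counts are uncertain. Abcc1, a transporter that exports leukotriene C4, rose with LPS (0.33, adjusted p = 0.0205). Zadh2, a prostaglandin reductase, fell with LPS (-0.53, adjusted p = 0.00146) and rose in SUR against LPS (0.55, adjusted p = 0.00156, same test).

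The 13 listed upstream kinases and regulators of COX-2 or cPLA2 include transcription factors. Of the 13, 9 rose with LPS and 0 fell, where 8.98% of all tested genes rose and 9.36% fell. In SUR against LPS 6 of the 13 fell and 1 rose, where 7.93% of all tested genes fell and 9.29% rose. The list was chosen with earlier results of these data known, and both comparisons use the same LPS libraries. Mapkapk2, the kinase MK2 that stabilises COX-2 mRNA downstream of p38, averaged 572 CPM in SUR, 1836 CPM in LPS and 516 CPM in CON. Its log2 fold change was 1.83 in LPS against CON (SE 0.10, adjusted p = 2.82e-05 by edgeR's quasi-likelihood test) and -1.68 in SUR against LPS (SE 0.10, adjusted p = 6.31e-05). Rela and Nfkb1, the NF-kappaB subunits p65 and p105, had log2 fold changes of 1.47 and 1.07 in LPS against CON (adjusted p = 6.49e-05 and 4.16e-05). In SUR against LPS theirs were -1.08 and -1.07 (adjusted p = 0.000374 and 7.9e-05, same test). Cebpb and Cebpd, transcription factors of the C/EBP family, both rose with LPS (log2 fold changes 1.15 and 0.79, adjusted p = 0.00198 and 0.00655, same test). In SUR against LPS Cebpd fell (-0.57, adjusted p = 0.031), and Cebpb, at -0.51, was not called without the block (adjusted p = 0.0759) and was called with it (-0.52, adjusted p = 0.00695, same test). Smaller rises with LPS were those of the kinase gene Mapkapk3 (0.32, adjusted p = 0.024) and of Elavl1, which encodes the mRNA-stabilising protein HuR (0.31, adjusted p = 0.0362). Both fell in SUR against LPS, Mapkapk3 by -0.32 (adjusted p = 0.0283) and Elavl1 by -0.30 (adjusted p = 0.0403, same test). Exons of Cebpb, Cebpd, Elavl1, Zfp36 and Ptger2 overlap genes on the opposite strand, with the same uncertainty as for Ptger4. Egr1, an immediate-early transcription factor, did not follow them: it had 93.8, 62.4 and 99.0 CPM in SUR libraries, 55.7, 33.7 and 41.3 CPM in LPS libraries and 12.7, 10.2 and 14.4 CPM in CON libraries. It rose in all 3 comparisons, with a log2 fold change of 2.77 in SUR against CON (adjusted p = 0.00493, same test). Zfp36, which encodes the mRNA-destabilising protein tristetraprolin, rose with LPS (2.04, adjusted p = 0.00435) and in SUR against CON (2.24, adjusted p = 0.0495), and averaged 1026 CPM in SUR and 894 CPM in LPS.

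The genes whose log2 CPM followed each member most closely over the 9 libraries were taken from the 7702 or 7703 others that averaged 4 or more on the log2 CPM scale. For Ptgs2 they were Sowahc (Pearson r 0.993) and Junb, Ccnl1 and Pim1 (0.992 each). For Ptger4 they were Zc3h12a (0.991), Socs3 and Dusp1 (0.987 each) and Dusp2 (0.986), and for Ptges they were Mcoln2 (0.99), Nckap1l (0.981), H2-D1 and Slc31a1 (0.976 each). For Pla2g4a they were Etf1 (0.99), Mtdh and Tnfrsf12a (0.988 each) and Gspt1 (0.984). For Alox5 they were Uba7 (0.983), Arhgap4 (0.982), Steap3 and Rab31 (0.98 each). The 9 points share groups and replicate numbers, so each r describes these libraries alone.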

How the data were processed

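The authors aligned reads with HISAT2 2.0.4 to GRCm38 (mm10), per the submitters' processing notes. No source used here names the counting tool or annotation. Expected counts were deposited without normalization, per the file headers. Of them, 93.4% were whole and all were rounded before testing. FPKM values are the authors', scaled for length and depth, per the file headers. The authors' deposited table also gives their log2 fold changes and DESeq2 q-values, and the deposited p-values and TPM were not used for tests.

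Genes were filtered with filterByExpr, leaving 11281 tested and 3490 not tested, and scaled by TMM (factors 0.934 to 1.04). edgeR 4.0.16 (R 4.3.3) fitted all 9 libraries together, 1 mean for each group and no covariate. The quasi-likelihood F test was adjusted by Benjamini-Hochberg over all tested genes. CPM are counts scaled with TMM, except for the marker sums, which were scaled to the library total alone. Standard errors were derived from F. Ratio tests were exact permutation tests. DESeq2 1.42.0 and limma 3.58.1 served for alternatives, and the scripts were tested on simulated data. Replicate numbers are shared by the groups. The deviations from group means of same-numbered libraries correlated with r of 0.435 to 0.801 in 9 of 9 pairs. In 18 pairs with different numbers r was -0.643 to 0.437. Much of this contrast sets libraries 1 apart from 2 and 3. Among libraries numbered 2 and 3, r was 0.435 to 0.586 for the same number and 0.347 to 0.437 for different numbers. The block treats the numbers as pairs, which no label states. Blocked values are given beside results whose call they change.

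The 10 genes, the pathway list, the marker lists and the alternatives were chosen with earlier results of these data known. All 10 genes are named in every comparison. From the pathway list the rule names called genes that moved by 1 or more on the log2 scale, plus up to 3 further called genes per role. The 4 genes with the highest r name those most like 5 members, leaving out predicted gene models. Pathway genes named as not called or not tested, Ptgir in LPS against CON, and Cebpb and Elavl1 in SUR against LPS, were chosen after their values were seen. Exon overlaps are from GENCODE vM21, promoter windows from RefSeq. Figures were drawn with matplotlib 3.10.9.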

Additional observations from a re-analysis of the deposited data

How the results depend on the processing

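No result turned round in any setting, counting changes of sign where either value passed the threshold. With the replicate number as a block (pairing by number), the genes called of the 10 were 6 in LPS against CON, 5 in SUR against LPS and 2 in SUR against CON, against 2, 2 and 1 without it. The pathway calls with the replicate block were 22, 27 and 6, against 13, 12 and 2, and the calls over all genes 4714, 5109 and 1302, against 2069, 1943 and 48. Without the 3 libraries numbered 1, the 10 genes gave 6, 6 and 2 calls, all genes 3415, 3391 and 587, and the pathway list 19 in SUR against LPS and 5 in SUR against CON. DESeq2 called 4 of the 10 in LPS against CON, and in SUR against CON 4 of the pathway list and 259 genes. Fits of only the 6 libraries compared gave 0 of the 10, 1 of the pathway list and 4 genes in SUR against CON. In SUR against LPS, 0 of the 10 were called with upper-quartile normalization, and 0 with limma on log2(FPKM + 1) or log2(FPKM + 0.1). On the FPKM scale the median of all genes moved by -0.114 in LPS against CON and 0.117 in SUR against LPS with a pseudocount of 1, and by -0.133 and 0.137 with 0.1. Rises and falls over all genes were 1013 and 1056 in LPS against CON and 1048 and 895 in SUR against LPS. They were 765 and 1709, and 1595 and 616, with upper-quartile normalization, and 679 and 2040, and 1970 and 518, with limma on log2(FPKM + 1). The causes were not tested.

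Leaving out 1 library at a time gave 2 to 4 calls among the 10 in LPS against CON, 0 to 3 in SUR against LPS and 0 to 2 in SUR against CON. The pathway list gave 10 to 14, 6 to 14 and 0 to 3 calls, and all genes 1379 to 2075, 1208 to 2054 and 0 to 168. Ratios taken from CPM in place of FPKM, an alternative chosen after seeing the data, kept their signs. Alox5 and Ptges rest on low counts, and with the replicate block the standard error in LPS against CON was 0.27 for Alox5 and 0.17 for Ptges, against 0.75 and 0.32 without it. With 3 libraries in a group, the number of libraries limits every test.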
